A study of Mus musculus with 30 samples.

Results

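Caveolae coat genes were followed as a set of 8 named genes: the caveolins Cav1 and Cav2, the cavins Cavin1, Cavin2 and Cavin3, the ATPase gene Ehd2, and the pacsins Pacsin2 and Pacsin3. They were picked by symbol from the 54232 genes of the count table, and all 8 were among the 20139 genes with more than 14 counts summed over the 30 libraries. The cells were 3T3-L1, a mouse preadipocyte line, kept 5 days in adipogenic medium. Each of 6 groups held 5 libraries. Control cells received no added agent, the pNaKtide group received 0.7 µM pNaKtide, the IS group 100 µM indoxyl sulfate, and the oxLDL group 50 µg/mL oxidized LDL. The IS+pNaKtide and oxLDL+pNaKtide groups received the agent and the peptide at those same doses. All groups shared the cell line and the adipogenic medium, so the design holds 1 line and no other fat cell. The labels give 5 days of treatment where the study's methods describe a shorter schedule, so the length of exposure is uncertain. The labels also name adipose tissue as the RNA source, although every library is labelled as 3T3 cells. Nothing in the labels says that the 5 libraries of a group came from separate cultures, so the p-values measure the spread between these libraries, which may be technical.

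Caveolae are flask-shaped pits of the plasma membrane and are abundant in fat cells. Caveolins insert into the inner leaflet and build the bulb, cavins assemble a coat over it, EHD2 sits at the neck and holds the pit at the surface, and pacsins bend the membrane through their F-BAR domains. Indoxyl sulfate is a uremic toxin, oxLDL is an oxidized lipoprotein taken up by scavenger receptors such as CD36, and pNaKtide is a peptide that blocks Src activation by the Na+/K+-ATPase, a pump also found in caveolae.

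The libraries held 6945498 to 15159877 counts, with a median of 11524210. Adipocyte markers marked the cells as labelled, with 8 of 9 markers at a mean of at least 1 CPM (counts scaled to a common library total) in every group and leptin at 76 counts in total. All 6 preadipocyte or fibroblast markers were also present. Of the markers of endothelium, a tissue rich in caveolae, Pecam1 was at most 0.613 CPM in any library and Cdh5, Kdr, Tek and Emcn held 6 to 8 counts each in total, the macrophage markers Ptprc and Adgre1 held 0 and 4 counts in total, and the muscle regulators Myod1 and Myog 0 counts. Other members of those lists were present, with Cd68 at a mean of 4.57 CPM and Lyz2 at 1.47 CPM, and Des at 19.2, Myh11 at 8.91 and Acta1 at 1.30 CPM. The pair Control replicate 1 and IS replicate 4 stood apart from their groups. On the first principal component, which held 71.7% of the variance of 9872 genes, Control replicate 1 lay at 22.4 and the other controls at -25.4 to -5.3, while IS replicate 4 lay at -24.4 and the other IS libraries at 19.1 to 30.9. The lowest library, oxLDL+pNaKtide replicate 4, lay at -57.0, the rest of its group at -28.1 to -12.8. It held 53.6 CPM of Cav2 (others 81.6 to 98.0) and 177 CPM of Cavin3 (others 117 to 144). Replicate 3 of pNaKtide lay at 4.6, the rest of its group at -30.9 to -13.2. Both were kept in the main fit. For members called in oxLDL or IS versus Control, fold changes are given with and without the pair Control replicate 1 and IS replicate 4. Summed CPM, FPKM ratios and the changes of paralogs and listed genes are given with all libraries. Cavin3 had an r of -0.98 with that component and Ehd2 one of -0.90, so leaving out the pair amounts to a choice on the members' own levels, and values without it are a description with no test.

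Levels per length spanned a wide range within the set. In the authors' FPKM, averaged over the 30 libraries, Ehd2 stood at 309, Cavin1 at 293 and Cav1 at 223. Cavin2 at 67.2 and Cavin3 at 64.6 followed, then Cav2 at 32.0, Pacsin2 at 17.5 and Pacsin3 at 6.59. The caveolin and cavin with muscle-restricted roles were nearly silent, with Cav3 at 0 counts and Cavin4 at 76 counts over all libraries. Pacsin1, the neuronal pacsin, had 2 counts.

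The genes lie on 6 chromosomes of GRCm38. Cav2 (ENSMUSG00000000058, chr6:17281185-17289115) and Cav1 (ENSMUSG00000007655, chr6:17306335-17341452) are neighbours on the plus strand, 17.2 kb apart. Cavin1 (ENSMUSG00000004044) spans chr11:100956733-100970887, Cavin2 (ENSMUSG00000045954) chr1:51289126-51302960 and Cavin3 (ENSMUSG00000037060) chr7:105480083-105482300. Ehd2 (ENSMUSG00000074364) spans chr7:15946958-15967567, Pacsin2 (ENSMUSG00000016664) chr15:83375607-83464606 and Pacsin3 (ENSMUSG00000027257) chr2:91255954-91264679. Their longest transcripts differed in GC content, from 37.5% in Cav2, 42.6% in Cav1 and 44.4% in Cavin2 to 52.7% in Pacsin2, 54.5% in Ehd2, 56.4% in Cavin3, 57.3% in Cavin1 and 58.8% in Pacsin3. The median of all tested genes was 49.4%.

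Bases upstream of the start are shown for the neighbouring caveolin genes, whose deposited counts differed in course, for Cavin2, which moved with Cav2, and for Ehd2, which was called in every fit of both oxLDL comparisons. The sequences are from RefSeq, GRCm38.p6, written 5′ to 3′ on the strand of the gene. They cover chr6:17306085-17306334 (plus, Cav1), chr6:17280935-17281184 (plus, Cav2), chr1:51288876-51289125 (plus, Cavin2) and chr7:15967568-15967785 (minus, Ehd2, without the 32 bases inside the annotated gene). Capitals mark matches on either strand to 3 motifs. These are the GC box with the letters GGGCGG, the CCAAT box with those of its name, and the TATA box with TATAAA.
Cav1: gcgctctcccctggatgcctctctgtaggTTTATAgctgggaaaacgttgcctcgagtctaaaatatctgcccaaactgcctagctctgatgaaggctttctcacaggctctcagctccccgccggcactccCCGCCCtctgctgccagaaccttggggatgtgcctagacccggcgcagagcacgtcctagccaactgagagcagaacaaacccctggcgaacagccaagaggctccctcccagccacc
Cav2: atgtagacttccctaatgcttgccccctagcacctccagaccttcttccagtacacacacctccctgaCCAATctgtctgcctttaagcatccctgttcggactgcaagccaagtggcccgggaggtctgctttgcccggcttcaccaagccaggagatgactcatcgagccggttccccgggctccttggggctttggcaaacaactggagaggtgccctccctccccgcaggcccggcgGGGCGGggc
Cavin2: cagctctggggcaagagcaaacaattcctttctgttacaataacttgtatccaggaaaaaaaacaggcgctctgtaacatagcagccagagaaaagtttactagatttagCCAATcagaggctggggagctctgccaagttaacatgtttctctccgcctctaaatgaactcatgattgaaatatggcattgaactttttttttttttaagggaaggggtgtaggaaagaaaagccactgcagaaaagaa
Ehd2: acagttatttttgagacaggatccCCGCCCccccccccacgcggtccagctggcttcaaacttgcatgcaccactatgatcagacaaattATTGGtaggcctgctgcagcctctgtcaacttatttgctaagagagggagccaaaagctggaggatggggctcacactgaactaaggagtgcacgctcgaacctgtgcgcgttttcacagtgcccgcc
A GC box was in the 250 bases before the start of 6 of the 7 genes with an entry, Cavin2 being the exception, and in 32.7% of 32851 promoters of the same length. A CCAAT box was there in 6 of the 7, Cav1 being the exception, and in 33.8% of all promoters. Cav1 alone held a TATA box, 221 bases before the start, a motif found in 12.4% of all promoters. None of the 7 held a sterol regulatory element (TCACNCCAC) or a CArG box, which 1.05% and 1.47% of promoters held. Cavin3 was the gene without an entry.

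Across the comparisons, the set did not move as 1 block. Under oxLDL, Ehd2, Cavin3 and Cavin1 fell and Cav2 rose, while pNaKtide added to oxLDL moved each of these the other way. Both comparisons use the same oxLDL libraries, with opposite sign, and oxLDL+pNaKtide versus Control called no member. The calls of Ehd2 and Cavin3 held when a trend over transcript GC content and length was removed, though Cavin3 shrank from -0.48 to -0.18 and from 0.71 to 0.33 (log2), and those of Cav2 and Cavin1 were lost. Under IS, Ehd2 and Cavin1 fell, in calls that were lost without any 1 of 8 libraries. Addition of pNaKtide to unstressed cells or to IS-treated cells called no member. Cav1, the defining caveolin, differed by no more than 1.10-fold between its highest and lowest group means in the counts as deposited, but with the same trend removed it was called at -0.35 in oxLDL versus Control, 0.50 in oxLDL+pNaKtide versus oxLDL and -0.37 in IS versus Control.

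**Figure D1:**
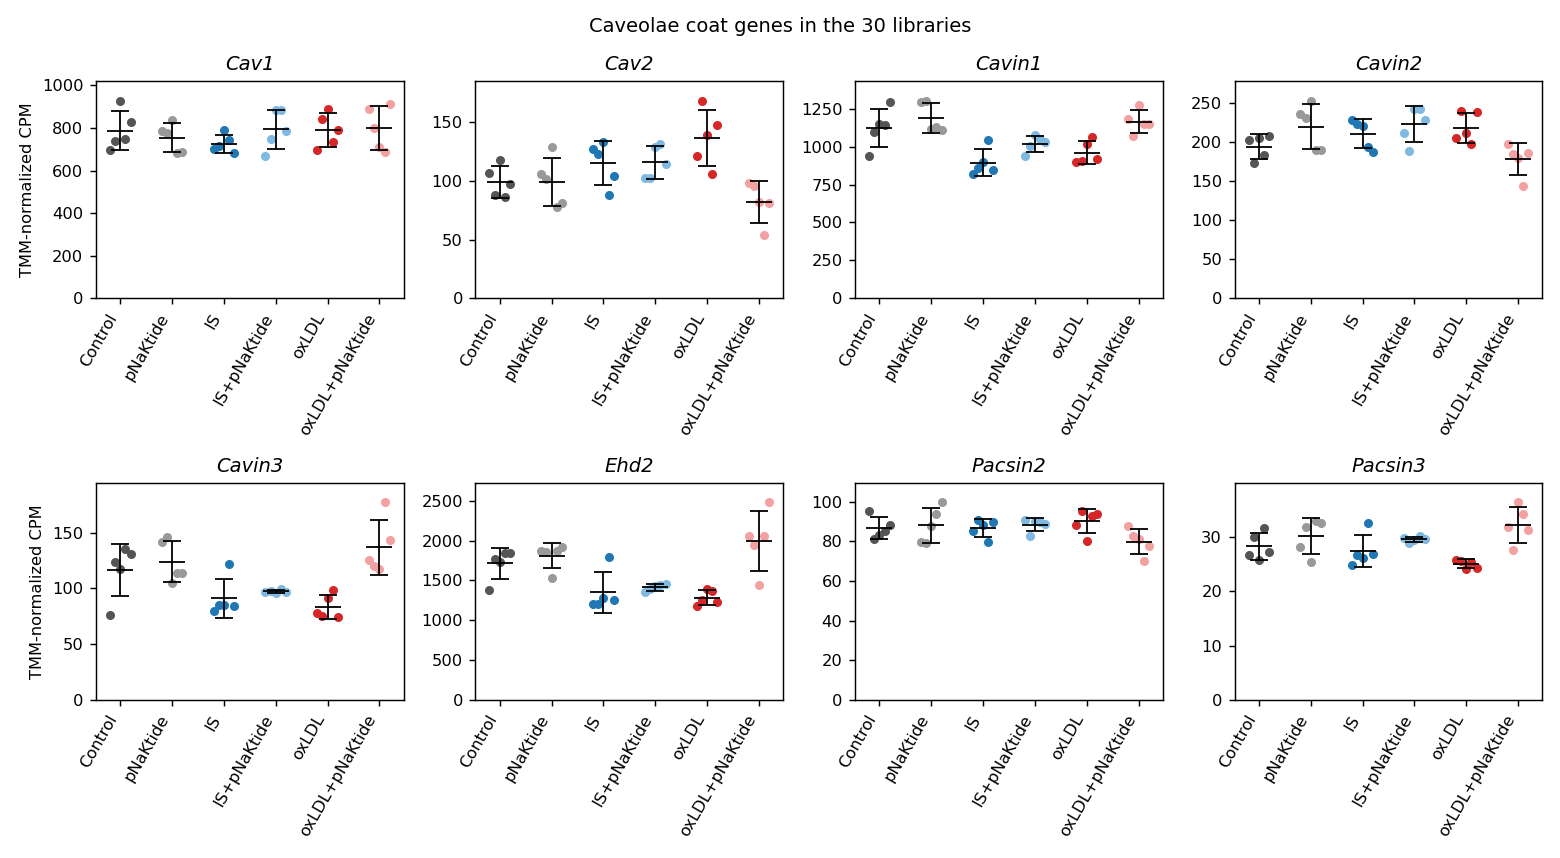
TMM-normalized CPM (y axis, from 0, one scale per gene) of the 8 genes in the 6 groups (x axis); points are libraries in replicate order, bars the mean and SD of 5. The oxLDL and oxLDL+pNaKtide libraries do not overlap for Cav2, Cavin1, Cavin3, Ehd2 and Pacsin3, and Control replicate 1 and IS replicate 4 sit away from their groups for Ehd2 and Cavin3.

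Calls were made with edgeR's quasi-likelihood test at a BH-adjusted p-value under 0.1. In oxLDL versus Control, 4 of the 8 genes were called, 1 higher and 3 lower, where 36.0% of all tested genes were called, 18.1% higher and 18.0% lower. Control and oxLDL libraries overlapped for all 8 genes, and were apart for 8.35% of all genes. In oxLDL+pNaKtide versus oxLDL, 7 of 8 were called, 4 higher and 3 lower, where 48.3% of all tested genes were called, 22.1% higher and 26.1% lower, and 5 of 8 had groups that did not overlap, against 28.4% of all genes. In IS versus Control 2 of 8 were called, both lower, against 7.94% of all genes, 4.45% higher and 3.49% lower. That share rests on 1599 genes, a count that ran from 15 to 6952 on leaving out 1 library. The groups overlapped for all 8 members, and were apart for 1.81% of all genes. No member was called in pNaKtide versus Control, where 0.00497% of all genes were called and 0 of 8 members passed an unadjusted p of 0.05. IS+pNaKtide versus IS called 0 members and 0.0% of genes, although 564 genes, Cavin1 among them, had an unadjusted p under 0.05 and DESeq2 called 14 genes. IS versus oxLDL called 0 members against 0.0149% of genes, with 1047 genes and 0 members at an unadjusted p under 0.05. Against Control, oxLDL+pNaKtide called 0 members and 5.2% of genes, and IS+pNaKtide 0 members and 0.358% of genes. Without Control replicate 1 and IS replicate 4, 3 members passed the threshold as lower in IS+pNaKtide versus Control, Cavin3 at -0.38, Ehd2 at -0.35 and Cavin1 at -0.20, and so did 32.4% of all genes. Without the same pair, 45.4% of all genes passed it in IS versus Control, and of the members Cavin1, Cavin3 and Ehd2 did. In oxLDL versus Control 47.6% of all genes passed it, and of the members Cav2, Cavin1, Cavin3, Ehd2 and Pacsin3. The median log2 fold change of the 8 genes was -0.08 in oxLDL versus Control and 0.15 in oxLDL+pNaKtide versus oxLDL, beside 0.04 and -0.09 over all tested genes. Comparisons that share a group, such as those against Control, also share its libraries. The oxLDL libraries enter oxLDL versus Control and oxLDL+pNaKtide versus oxLDL with opposite sign, so their deviations push both fold changes in opposite directions. In bulk RNA, fewer cells of a type and less RNA per cell cannot be told apart.

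In the counts as deposited, Cav2 was called in both oxLDL comparisons and its neighbour Cav1 in neither. Cav1 encodes the scaffold without which non-muscle caveolae do not form. Its CPM was 699, 737, 928, 746 and 827 in the Control libraries, 698, 844, 891, 733 and 792 with oxLDL, and 890, 798, 711, 686 and 913 with oxLDL+pNaKtide. The 3 ranges coincided, and the fold changes were 0.01 ± 0.10 (log2, SE) in oxLDL versus Control and 0.01 ± 0.10 in oxLDL+pNaKtide versus oxLDL (adjusted p = 0.961 and 0.931). With the trend over GC content and length removed they were -0.35 and 0.50 for Cav1, both called, and -0.18 and 0.08 for Cav2, neither called. With IS the Cav1 libraries lay between 681 and 791 CPM, inside or just under the Control range, and the fold change was -0.12 ± 0.10 (adjusted p = 0.482).

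Cav2, which needs Cav1 to reach the cell surface, was measured at 106, 88.0, 118, 86.0 and 97.4 CPM in Control cells. The oxLDL libraries held 122, 168, 139, 106 and 147 CPM, and the oxLDL+pNaKtide libraries 98.0, 96.0, 81.8, 53.6 and 81.6 CPM. Every oxLDL library was above every oxLDL+pNaKtide library, and 4 of the 5 exceeded the highest control. Cav2 rose with oxLDL by 0.46 ± 0.15 (log2, SE, adjusted p = 0.0226), from 99.1 ± 13.3 to 137 ± 23.9 CPM (SD, n = 5), and by 0.49 without the pair of libraries that stood apart. It fell with oxLDL+pNaKtide relative to oxLDL, at -0.73 ± 0.15 (adjusted p = 0.00027), to 82.2 ± 17.7 CPM. The IS groups lay between, at 115 ± 18.9 CPM with IS and 116 ± 13.9 CPM with IS+pNaKtide. The FPKM of Cav2 relative to Cav1 was 0.130 ± 0.0157 in Control cells, 0.178 ± 0.0228 with oxLDL and 0.106 ± 0.0186 with oxLDL+pNaKtide (SD, n = 5), and the ranges of 0.150 to 0.206 and 0.0808 to 0.124 in the oxLDL groups did not overlap.

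Among the cavins, Cavin1 and Cavin3 were called in the same directions in both oxLDL comparisons, and Cavin2 fell where they rose, all in the counts as deposited. With the trend over GC content and length removed, Cavin3 was the one still called. Cavin3 (also Prkcdbp), a cavin that also binds protein kinase C delta, was at 76.2, 123, 117, 135 and 131 CPM in Control cells and at 78.2, 75.0, 91.4, 98.7 and 74.6 CPM with oxLDL. With oxLDL+pNaKtide it was at 125, 120, 117, 177 and 144 CPM. All 5 of these were above all 5 oxLDL libraries, and Control replicate 1 was the only control within the oxLDL range. Cavin3 fell with oxLDL, at -0.48 ± 0.13 (adjusted p = 0.0127), and rose with oxLDL+pNaKtide relative to oxLDL, at 0.71 ± 0.14 (adjusted p = 0.000134), a 1.63-fold difference. With the trend over GC content and length removed these were -0.18 and 0.33, both still called. Without Control replicate 1 and IS replicate 4 the change with oxLDL was -0.60.

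In the IS group Cavin3 was at 79.3, 84.7, 84.9, 122 and 84.3 CPM, and IS replicate 4 held the value of 122. The fold change was -0.36 ± 0.13 (unadjusted p = 0.0119, adjusted p = 0.113 in edgeR), which was not called. Over 13 other fits 5 called it, among them DESeq2 (adjusted p = 0.075). The 5 include the fit without the pair, which leaves out that value of 122 and is a description with no test. Without the pair of libraries that stood apart it was -0.60. The IS+pNaKtide libraries were tightly grouped at 96.2 to 99.4 CPM, with 97.3 ± 1.39 (SD, n = 5), against an SD of 23.5 in Control cells, or 7.83 without Control replicate 1.

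Cavin1 (also Ptrf), the cavin required for coat assembly, was at 941, 1096, 1152, 1140 and 1292 CPM in Control cells, 899, 902, 1016, 1067 and 919 CPM with oxLDL, and 1182, 1072, 1275, 1147 and 1150 CPM with oxLDL+pNaKtide. The oxLDL+pNaKtide libraries were all above the oxLDL libraries, by a narrow gap between 1067 and 1072. The change was -0.23 ± 0.09 with oxLDL (adjusted p = 0.0594) and 0.28 ± 0.09 with oxLDL+pNaKtide relative to oxLDL (adjusted p = 0.0129). Without the pair of libraries that stood apart the change with oxLDL was -0.28. The call with oxLDL was lost without any 1 of 5 libraries, with library size alone (-0.10), with genes of at least 1 count (adjusted p = 0.114) and with the trend over GC content and length removed (0.01). The call in oxLDL+pNaKtide versus oxLDL was lost with library size alone (0.06) and with the trend removed (0.04). With IS, Cavin1 was at 822, 858, 898, 1046 and 848 CPM and changed by -0.33 ± 0.09 (adjusted p = 0.0628), a call of lower expression. The lowest control, replicate 1, lay inside the IS range, and without the same pair the change was -0.45. This call was lost without any 1 of 8 libraries, with only the groups compared (adjusted p = 0.257) and with the trend removed, at -0.17 (adjusted p = 0.191). Cavin1 was 1020 ± 53.0 CPM with IS+pNaKtide and 894 ± 89.0 with IS (SD, n = 5), a fold change of 0.19 ± 0.09 (unadjusted p = 0.0436 and adjusted p = 1.0 in edgeR).

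Cavin2 (also Sdpr), a cavin that shapes membrane curvature, had 194 ± 15.5 CPM in Control cells, 219 ± 19.3 with oxLDL and 178 ± 20.6 with oxLDL+pNaKtide (SD, n = 5). It was not called with oxLDL, at 0.17 ± 0.10 (adjusted p = 0.203), and fell with oxLDL+pNaKtide relative to oxLDL, at -0.29 ± 0.10 (adjusted p = 0.0161). With the trend removed that change was 0.07 and not called. The highest oxLDL+pNaKtide library, at 197 CPM, met the lowest oxLDL library, also at 197 CPM. The FPKM of Cavin2 relative to Cavin3 was 1.45 ± 0.288 with oxLDL and 0.734 ± 0.175 with oxLDL+pNaKtide, with 0.953 ± 0.288 in Control cells (SD, n = 5).

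Ehd2, the neck ATPase, had the highest CPM of the set and moved with Cavin3. It was at 1380, 1773, 1732, 1842 and 1840 CPM in Control cells, and at 1180, 1251, 1392, 1363 and 1229 CPM with oxLDL. With oxLDL+pNaKtide it was at 2060, 1942, 1437, 2051 and 2477 CPM. Each oxLDL+pNaKtide library lay above all oxLDL libraries, replicate 3 by the least. Ehd2 fell with oxLDL, at -0.42 ± 0.12 (adjusted p = 0.0131), and rose with oxLDL+pNaKtide relative to oxLDL, at 0.64 ± 0.12 (adjusted p = 0.000106), a 1.55-fold difference. Control replicate 1 was again the single control within the oxLDL range, and without the pair that stood apart the change with oxLDL was -0.49.

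With IS, Ehd2 was at 1209, 1206, 1279, 1799 and 1251 CPM, and its change was -0.35 ± 0.12 (adjusted p = 0.0933), a call of lower expression. Without the pair of libraries that stood apart, the change was -0.54, and 4 controls at 1732 to 1842 CPM faced 4 IS libraries at 1206 to 1279 CPM. The call was lost without any 1 of the 8 libraries other than that pair, with the trend over GC content and length removed (-0.26, adjusted p = 0.118), with genes of at least 1 count (adjusted p = 0.133) and with only the groups compared (adjusted p = 0.268). Addition of pNaKtide to IS gave 1412 ± 40.7 CPM (SD, n = 5), a fold change of 0.07 ± 0.12 against IS (adjusted p = 1.0).

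The pacsins were called in oxLDL+pNaKtide versus oxLDL, Pacsin2 as lower and Pacsin3 as higher, but neither call held under every alternative. Pacsin2, the widely expressed member that shapes the caveolar neck, was at 86.8 ± 5.37 CPM in Control cells, 90.2 ± 6.04 with oxLDL and 79.9 ± 6.44 with oxLDL+pNaKtide (SD, n = 5). It fell with oxLDL+pNaKtide relative to oxLDL, at -0.17 ± 0.08 (adjusted p = 0.0645), with overlapping groups. The call was lost without any 1 of 5 libraries and in 3 of 13 other fits. Pacsin3 was at 25.8, 25.6, 24.1, 25.5 and 24.3 CPM with oxLDL and at 31.9, 27.5, 36.3, 34.3 and 31.3 CPM with oxLDL+pNaKtide. The oxLDL+pNaKtide libraries were all higher, and Pacsin3 rose by 0.36 ± 0.09 (adjusted p = 0.00126). It was not called with library size alone, at 0.14 (adjusted p = 0.178), or with the trend over GC content and length removed, at -0.01. Pacsin3 was not called in oxLDL versus Control, at -0.17 ± 0.09 (adjusted p = 0.143). It was at -0.19 without the pair of libraries that stood apart, a description with no test. Of 13 other fits 4 called it, that fit among them.

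For none of the 8 genes did the mean CPM of groups adjacent in rank differ beyond their spread, since every pair of neighbouring groups overlapped. Without Control replicate 1 and IS replicate 4, 3 of 40 neighbouring pairs were apart. These were Ehd2 in Control (1732 to 1842 CPM) and IS+pNaKtide (1348 to 1449 CPM), Cavin3 in pNaKtide (104 to 146 CPM) and IS+pNaKtide (96.2 to 99.4 CPM), and Cavin1 in oxLDL (899 to 1067 CPM) and IS (822 to 898 CPM). The highest over the lowest group mean was 1.10-fold for Cav1, 1.13-fold for Pacsin2, 1.25-fold for Cavin2, 1.29-fold for Pacsin3, 1.33-fold for Cavin1, 1.55-fold for Ehd2, 1.64-fold for Cavin3 and 1.66-fold for Cav2. Cav2 was highest with oxLDL and lowest with oxLDL+pNaKtide, and Ehd2 and Cavin3 were highest with oxLDL+pNaKtide and lowest with oxLDL. Summed over the 8 genes the CPM was 4150 ± 380 in Control cells, 3589 ± 203 with oxLDL, 3501 ± 352 with IS and 4467 ± 426 with oxLDL+pNaKtide (SD, n = 5).

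The change with pNaKtide in oxLDL was tested against the change with pNaKtide alone, and against that in IS. The first difference called 4 of 8 genes where 24.6% of all tested genes were called. Cav2 differed by -0.73 ± 0.21 (adjusted p = 0.0294), Cavin2 by -0.47 ± 0.14 (adjusted p = 0.0315), Cavin3 by 0.62 ± 0.19 (adjusted p = 0.0348) and Ehd2 by 0.56 ± 0.17 (adjusted p = 0.0329). The second called the same 4 genes, where 29.3% of all genes were called, with differences of -0.74, -0.37, 0.61 and 0.57. The Cavin2 call in the second was lost without any 1 of IS replicate 4, oxLDL replicates 2 and 5 and oxLDL+pNaKtide replicate 4 (adjusted p = 0.1 to 0.15). After removal of the GC and length trend the first and second differences were 0.02 and 0.01 for Cav2 and -0.15 and -0.02 for Cavin2, none called. Cavin3 was then at 0.26 and 0.25 (adjusted p = 0.109 and 0.0907), and Ehd2, called in both, at 0.42 and 0.51 (adjusted p = 0.0495 and 0.0126). Cav1 was then called in the first, at 0.52 (adjusted p = 0.0443). Without the pair that stood apart, 7 members and 40.0% of all genes passed the threshold in the first difference, and in the second the same 4 members as before, with Cav2 at -0.65, Cavin2 at -0.34, Cavin3 at 0.48 and Ehd2 at 0.44, and 24.3% of all genes. Between pNaKtide in IS and pNaKtide alone, edgeR called 0 members and 0.0% of genes, with 619 genes at an unadjusted p under 0.05 and 0 genes called by DESeq2.

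Fold changes over all genes followed the GC content of the transcript, and so did part of the changes in this set. In oxLDL+pNaKtide versus oxLDL the median of genes under 42% GC was -0.74, and that of genes at 58% or more was 0.39 (log2). In oxLDL versus Control these medians were 0.56 and -0.33. Cav2 at -0.73, in the lowest GC class, lay at its class median in oxLDL+pNaKtide versus oxLDL. Ehd2 at 0.64 and Cavin3 at 0.71 lay above their class median of 0.31, Cav1 at 0.01 lay above its class median of -0.41, and Pacsin2 at -0.17 lay below its class median of 0.15.

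**Figure D2:**
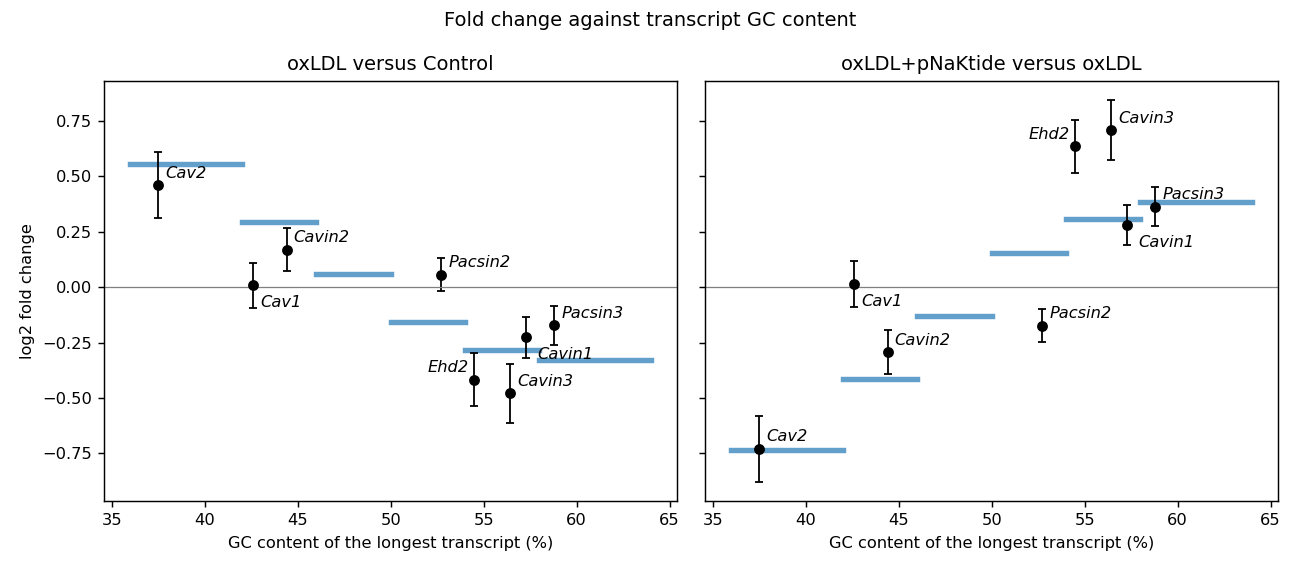
Log2 fold change (y axis, SE bars) of the 8 genes against the GC content of their longest transcript (x axis, %), with the median of all genes in 6 GC classes as blue lines (the end classes are open and are drawn 6 percentage points wide). Ehd2, Cavin3 and Cav1 sit above the class median in oxLDL+pNaKtide versus oxLDL, and Cav2 sits on it.

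With a smooth trend over GC content and length taken out of each library, the calls in oxLDL+pNaKtide versus oxLDL changed from 7 to 4, and the share of all genes called from 48.3% to 36.9%. Cavin3 at 0.33 ± 0.07 (adjusted p = 0.000416), Ehd2 at 0.56 ± 0.09 (adjusted p = 2.2e-05) and Pacsin2 at -0.26 ± 0.07 (adjusted p = 0.00707) were called both ways, and Cav1 was called as higher, at 0.50 ± 0.11 (adjusted p = 0.000744). Cav2 at 0.08, Cavin2 at 0.07 and Pacsin3 at -0.01 lost their calls and their sign, and Cavin1 at 0.04 lost its call. In oxLDL versus Control, Ehd2 at -0.30 (adjusted p = 0.0334) and Cavin3 at -0.18 (adjusted p = 0.0826) remained lower, Cav1 at -0.35 (adjusted p = 0.0386) became lower and Pacsin2 at 0.18 (adjusted p = 0.0889) higher, while Cav2 at -0.18 and Cavin1 at 0.01 were not called. In IS versus Control, Cav1 at -0.37 (adjusted p = 0.0692) was the gene called. Preparation batches of the libraries were not stated, and a GC trend made by the treatment and one made by library preparation cannot be told apart.

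**Figure D3:**
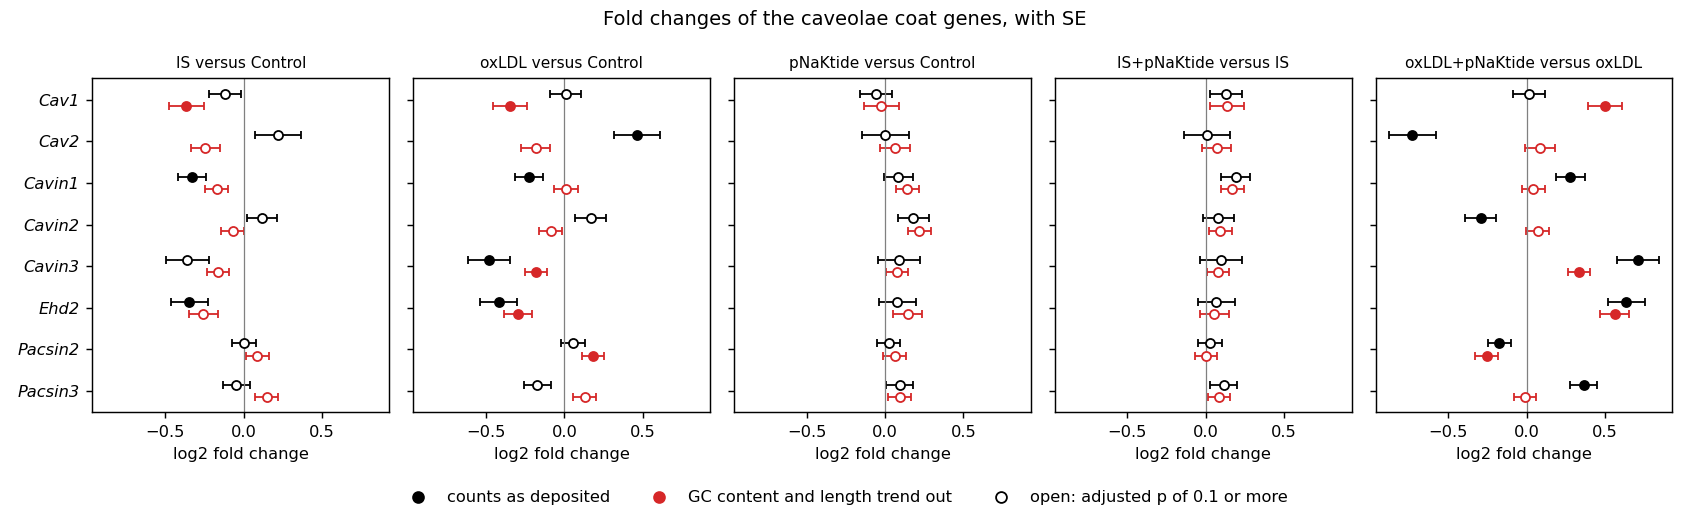
Log2 fold change with SE (x axis) of the 8 genes (y axis) in 5 comparisons, from counts as deposited (black) and after removal of the trend over GC content and length (red); filled points have an adjusted p under 0.1. Ehd2 and Cavin3 are filled in both colours in both oxLDL comparisons, whereas Cav2 moves across 0 when the trend is taken out.

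Ehd2 and Cavin3 were the members called in each of 13 other fits in both oxLDL comparisons. Over those fits the change in oxLDL+pNaKtide versus oxLDL ran from 0.40 to 0.67 for Ehd2 and from 0.33 to 0.74 for Cavin3, and in oxLDL versus Control from -0.49 to -0.29 and from -0.60 to -0.18. The 13 include the fit without Control replicate 1 and IS replicate 4, a description with no test, which gave the -0.49 and the -0.60. Among the other fits the largest falls were -0.42 for Ehd2 and -0.49 for Cavin3, with only the groups compared. The IS calls were less stable. Cavin1 and Ehd2 were each called in 10 of 13 other fits, among them the fit without Control replicate 1 and IS replicate 4. Both calls were lost on leaving out any 1 of Control replicates 2, 3, 4 and 5 or IS replicates 1, 2, 3 and 5. The fold changes without them stayed between -0.34 and -0.27 for Cavin1 and between -0.34 and -0.31 for Ehd2. All genes called in IS versus Control ran from 15 to 6952 on leaving out 1 library.

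Within the set, Cavin3 and Ehd2 had a Pearson r of 0.90 of log2 CPM over the 30 libraries, Cav2 and Cavin2 one of 0.85 and Cavin1 and Cavin3 one of 0.85, while Cav2 and Pacsin3 had -0.78 and Cav2 and Cavin3 -0.77. Cav1 had an r of 0.42 with Cav2, 0.41 with Cavin2, 0.30 with Cavin1 and 0.24 with Ehd2. With group means subtracted, Cav2 and Cavin2 had 0.91 and Cavin3 and Ehd2 had 0.74. Libraries share depth and composition across genes, and Cavin3 had an r of -0.98 with the first principal component of all genes, Ehd2 -0.90 and Cav2 0.84, while Cav1 had 0.0. The part of that component in these correlations was not tested. Among 12580 other genes, the highest r with Cav1 was 0.846 for Tmem182, 0.823 for Glud1 and 0.812 for Ubqln1, and with Cavin1 it was 0.935 for Tst, 0.921 for Clpb and 0.917 for Hp (30 libraries).

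**Figure D4:**
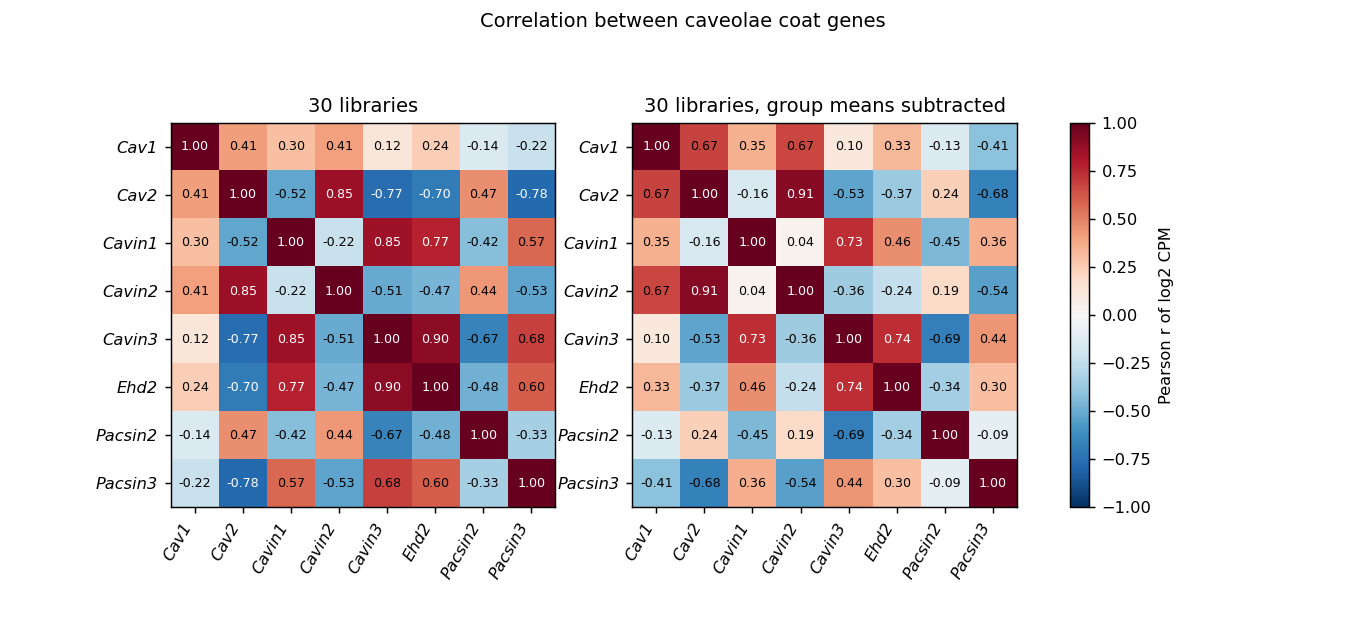
Pearson r of log2 CPM between each pair of the 8 genes over 30 libraries, as measured (left) and with group means subtracted (right), from -1 (blue) to 1 (red). Cav2 with Cavin2 and Cavin3 with Ehd2 have the darkest red cells off the diagonal in the left panel.

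Of the paralogs, Ehd1, an ATPase of endosomal recycling, moved in the directions of Ehd2. It fell with oxLDL at -0.48 ± 0.13 (adjusted p = 0.011) and with IS at -0.46 ± 0.13 (adjusted p = 0.0694), and rose with oxLDL+pNaKtide relative to oxLDL at 0.55 ± 0.13 (adjusted p = 0.00102). Its transcript has 58.6% GC, in a class whose medians were -0.33, -0.22 and 0.39 in these comparisons. Changes of paralogs and listed genes are from the counts as deposited, with no trend removed. Ehd3, Ehd4 and Cavin4 were not called in these comparisons. Of 15 genes of caveola dynamics, such as dynamins, Src-family kinases and flotillins, 4 rose and 7 fell in oxLDL+pNaKtide versus oxLDL, where 22.1% of all genes rose and 26.1% fell, with a median of -0.18 beside -0.09 over all genes. Flot2, a flotillin of lipid rafts, rose at 0.51 ± 0.12 (adjusted p = 0.00123), and Rab5a, a GTPase of early endosomes, fell at -0.74 ± 0.16 (adjusted p = 0.000623). With oxLDL, 4 of the 15 rose and 5 fell, against 18.1% and 18.0% of all genes, among them Rab11a at 0.41 and Flot2 at -0.44. The Flot2 transcript has 56.6% GC, in a class with medians of -0.28 with oxLDL and 0.31 in oxLDL+pNaKtide versus oxLDL. That of Rab11a has 39.5%, in a class with a median of 0.56 with oxLDL. With IS, 3 of the 15 rose and 0 fell, against 4.45% and 3.49% of all genes, among them Fnbp1l, an F-BAR protein gene, at 0.66 ± 0.21 (adjusted p = 0.0805). In the first and second differences of the pNaKtide change, Ehd1 was called at 0.60 and 0.52 and Flot2 at 0.46 and 0.53, Rab5a at -0.74 and -0.69, and Src, the kinase that phosphorylates Cav1, in the second at -0.39.

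Of 14 genes for proteins reported in caveolae, 6 rose and 4 fell in oxLDL+pNaKtide versus oxLDL (48.3% of all genes called), with a median of 0.08, and 2 rose and 5 fell with oxLDL (36.0% of all genes called). Cd36, the fatty acid and oxLDL receptor, rose with oxLDL from 768 ± 101 to 1109 ± 131 CPM (SD, n = 5, 0.53 ± 0.14, adjusted p = 0.0109) and was at 668 ± 130 CPM with oxLDL+pNaKtide (-0.73 ± 0.14 against oxLDL, adjusted p = 0.000159). Its transcript has 38.4% GC, in a class with medians of 0.56 with oxLDL and -0.74 in oxLDL+pNaKtide versus oxLDL. Scarb1, the HDL receptor, fell with oxLDL at -0.49 ± 0.10 (adjusted p = 0.00744), and Slc27a1, a fatty acid transporter, rose with oxLDL+pNaKtide relative to oxLDL at 0.56 ± 0.09 (adjusted p = 4.0e-05). With IS, where 7.94% of all genes were called, 1 of the 14 rose, Cd36 at 0.45 (adjusted p = 0.0817), and 2 fell, with Aoc3, a surface amine oxidase of fat cells, at -0.57 (adjusted p = 0.0447). In the first and second differences of the pNaKtide change, Aoc3 was at 0.74 and 0.63 and Cd36 at -0.73 and -0.65, all called.

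Of 9 adipocyte markers, 4 rose and 0 fell in oxLDL+pNaKtide versus oxLDL (48.3% of all genes called), 0 rose and 2 fell with oxLDL (36.0%), and 0 rose and 4 fell with IS (7.94%). Their summed CPM was 12400 to 15460 in Control cells, 11845 to 15719 with oxLDL, 14560 to 16271 with oxLDL+pNaKtide and 10364 to 12825 with IS. Cebpa, an adipogenic transcription factor, fell with IS at -0.46 ± 0.11 (adjusted p = 0.0487) and with oxLDL at -0.30 ± 0.11 (adjusted p = 0.0451). Its transcript has 62.6% GC, in a class with medians of -0.22 with IS and -0.33 with oxLDL. Retn, the resistin gene, rose with oxLDL+pNaKtide relative to oxLDL at 0.71 ± 0.14 (adjusted p = 0.000136) and relative to Control at 0.45 (adjusted p = 0.0609). Of 6 preadipocyte markers, 0 rose and 3 fell with oxLDL, 2 rose and 1 fell in oxLDL+pNaKtide versus oxLDL, and 0 rose and 3 fell with IS. Their summed CPM was 5126 to 7168 in Control cells, 4119 to 4620.5 with oxLDL, 3983 to 6942 with oxLDL+pNaKtide, 3009.7 to 5868 with IS, 3013 to 4128 with IS+pNaKtide and 3542 to 6491 with pNaKtide. Col1a1, a collagen gene, fell with IS at -0.79 ± 0.22 (adjusted p = 0.0628) and in IS+pNaKtide versus Control at -1.04 (adjusted p = 0.0568). Dlk1, a preadipocyte inhibitor of adipogenesis, fell with oxLDL at -0.69 ± 0.24 (adjusted p = 0.0369) and rose with oxLDL+pNaKtide relative to oxLDL at 1.00 ± 0.25 (adjusted p = 0.00157), where Pdgfra, a growth factor receptor of fat progenitors, fell at -0.57 ± 0.14 (adjusted p = 0.00112). In the differences of the pNaKtide change in oxLDL from that alone and that in IS, Cebpa was called in the first at 0.46, Retn in the second at 0.60, Dlk1 in both at 0.95 and 1.08, and Pdgfra in the second at -0.49. The muscle genes Des, Myh11 and Acta1 summed to 23.3 to 35.2 CPM in Control cells, 21.0 to 23.4 with oxLDL and 30.8 to 49.3 with oxLDL+pNaKtide. The oxLDL and oxLDL+pNaKtide groups thus did not overlap, which held for 28.4% of all tested genes taken singly. The macrophage markers Cd68, Csf1r and Lyz2 summed to 5.62 ± 1.05 CPM with oxLDL and 6.20 ± 0.936 with oxLDL+pNaKtide (SD, n = 5), in groups that overlapped. The part of cell state in the changes of the coat genes was not tested.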

How the data were processed

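RNA from 30 samples labelled 3T3 was sequenced from mRNA libraries. Per the labels' processing notes, the authors used Trimmomatic 0.38, HISAT2 2.1.0 and DESeq2 1.20.0 with the GRCm38 build, and counted reads per gene with GenomicAlignments. With strand setting and annotation release not given in the sources used here, deposited raw counts per Ensembl gene were tested as they stood, and the deposited FPKM values were used for levels per length. The authors' normalized counts were not used. Symbols came from GENCODE on GRCm38.

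Counts were fitted with edgeR 4.0.16 (robust quasi-likelihood, TMM, 6 groups, all 30 libraries) over 20139 genes with more than 14 counts in total, with BH adjustment over all of them and a threshold of 0.1. CPM values are TMM-normalized. There were 8 comparisons and 3 differences between changes. Alternatives used DESeq2 1.42.0, limma 3.58.1 on log2(FPKM + 1) and log2(FPKM + 0.1), and other scalings, filters, blocks and subsets. The trend over GC content and length was fitted per library with mgcv 1.9.3 on genes whose log2 CPM averaged 1 or more. The code was tested on simulated data. No pair of libraries in a group differed by less than sampling noise (lowest chi-square per degree of freedom 1.3 over 60 pairs).

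The text names the 8 members and all their paralogs, from the lists of caveola dynamics, caveola proteins, adipocyte markers and preadipocyte markers the most significant called gene per direction, and the 3 genes most like Cav1 and Cavin1. The members, lists and tests were chosen with earlier results of these data known.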

Additional observations from a re-analysis of the deposited data

Results flagged for a closer look

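In 6 of 48 groups of 5 libraries, 1 library lay far from the other 4. Chance gives about 1 group in 20. IS replicate 4 was the library for 3 of them, with Cavin3 at 121.85 CPM (others 79.3 to 84.9), Ehd2 at 1799 CPM (others 1206 to 1279) and Pacsin3 at 32.5 CPM (others 24.9 to 26.8). Ehd2 was at 1380.1 CPM in Control replicate 1 (others 1732 to 1842) and at 1533 CPM in pNaKtide replicate 3 (others 1860 to 1913). Pacsin2 was at 82.9 CPM in IS+pNaKtide replicate 2 (others 88.9 to 90.7).

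The change with pNaKtide in oxLDL differed from the change with pNaKtide alone by -0.73 for Cav2, -0.47 for Cavin2, 0.62 for Cavin3 and 0.56 for Ehd2 on the log2 scale, in edgeR's test of the difference. Against the change with pNaKtide in IS, the differences were -0.74, -0.37, 0.61 and 0.57. With the trend over GC content and length removed, the Cav2 differences were 0.02 and 0.01 and neither was called, no Cavin2 difference was called, and the first Cavin3 difference, at 0.26 (adjusted p = 0.109), was not called.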

How the results depend on the processing

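Over 11 comparisons or differences, 1138 values of single members under 14 alternatives kept direction and side of the threshold, 52 passed it, 25 no longer did and 17 changed sign, with sign compared where a value passed the threshold in either fit. Members called in IS versus Control numbered 1 with genes of at least 1 count, 1 after removal of the trend over GC content and length, 0 with only the groups compared and 0 at an adjusted p of 0.05. With the trend out, members called in oxLDL+pNaKtide versus oxLDL numbered 4, and 4 with the replicate block as well. IS+pNaKtide versus Control went from 0 to 1 with the trend out, 1 with the block too and 3 without Control replicate 1 and IS replicate 4. In oxLDL+pNaKtide versus Control it was 1 in DESeq2, 1 with the trend out and 1 with the block too, and the difference between oxLDL and pNaKtide alone called 7 members without those 2 libraries. With the trend out, 5.5% of all genes were called in IS versus Control and 36.9% in oxLDL+pNaKtide versus oxLDL. The shares were 2.86% in IS+pNaKtide versus Control and 9.76% in oxLDL+pNaKtide versus Control. Without the 2 libraries they were 32.4% in IS+pNaKtide versus Control and 40.0% in that difference. Leaving out 1 library gave 0 to 3 members in IS versus Control, 0 to 2 in IS+pNaKtide versus Control (2 without Control replicate 1) and 0 to 1 in oxLDL+pNaKtide versus Control (1 without oxLDL+pNaKtide replicate 2), 3 to 5 in oxLDL versus Control and 6 to 7 in oxLDL+pNaKtide versus oxLDL. All genes called ran over the same leave-outs from 15 to 6952 in IS versus Control, 1599 being the count with every library. They ran from 2 to 5378 in IS+pNaKtide versus Control and from 505 to 1300 in oxLDL+pNaKtide versus Control. In oxLDL versus Control they ran from 4971 to 9248, and in oxLDL+pNaKtide versus oxLDL from 8347 to 9805. The calls of Cavin1 in oxLDL versus Control and Pacsin2 in oxLDL+pNaKtide versus oxLDL were each lost without any 1 of 5 libraries.

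Values that changed sign with the trend out (with the replicate block in addition) were, in oxLDL versus Control, Cav1 -0.35 (-0.34), Cav2 -0.18 (-0.18) and Cavin1 0.0104 (0.0110). In oxLDL+pNaKtide versus oxLDL they were Cav2 0.0849 (0.0849), Cavin2 0.0700 (0.0694) and Pacsin3 -0.0101 (-0.0100), and Cav1 was -0.21 with library size alone, a scaling that moved the median of all genes from -0.09 to -0.30. For Cav2 the difference between oxLDL and pNaKtide alone became 0.0202 (0.0189), and that between oxLDL and IS 0.0145 (0.0142). Whether replicate numbers pair the libraries was not settled. Of 75 same-numbered pairs 37 had a correlation of deviations over 0.1, in a range of -0.66 to 0.79. Of 30 libraries 10 correlated best with their own number, and no baseline from differently numbered pairs is given. With the block alone, 3 members were called in IS versus Control, 4 in oxLDL versus Control and 7 in oxLDL+pNaKtide versus oxLDL. Over the 14 alternatives, all genes called ranged from 0 (only the groups compared) to 9140 (without the 2 libraries) in IS versus Control, 1599 being the reported count. They ranged from 4140 to 9591 in oxLDL versus Control (7259) and from 8 to 6517 in IS+pNaKtide versus Control (72). In oxLDL+pNaKtide versus Control they ranged from 11 to 2244 (1047) and in pNaKtide versus Control from 0 to 57 (1). IS+pNaKtide versus IS called 0 to 14 (0) and IS versus oxLDL 0 to 41 (3). The differences called 2411 to 8049 (4951) and 3629 to 6690 genes (5894) over the same alternatives.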
